A study of Rattus norvegicus with 29 samples.

Results

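Chromatin accessibility of the subventricular zone (SVZ) was compared with that of the nucleus accumbens (NAc) in saline-treated rats, using 3 SVZ and 4 NAc ATAC-seq libraries, which are 7 of the 29 libraries of the series. ATAC-seq measures open chromatin by the ease with which a transposase inserts adapters into DNA, and the values analysed were read counts in 98237 open chromatin regions (OCRs). The libraries were chosen by the region and treatment named in their titles, and the comparison was repeated without SVZ saline replicate 3, because that library was known beforehand to resemble NAc. The rats were adult male Sprague-Dawley animals with no genetic alteration. Saline was given intraperitoneally at 1 mL/kg in repeated injections 2 h apart, and tissue was taken the day after the last one. The other treatment group received methamphetamine (METH) at 10 mg/kg on the same schedule, and its 2 SVZ and 4 NAc libraries came from other animals than the saline libraries. The tissue was frozen and used in bulk, so a smaller share of cells of a type and less open chromatin per cell cannot be told apart.

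The SVZ lines the lateral ventricle and is a site of adult neurogenesis, where astrocyte-like stem cells produce neuroblasts beneath a layer of ciliated ependymal cells. The NAc is the ventral part of the striatum and consists mainly of GABAergic medium spiny neurons, which receive dopamine input and take part in reward. The SVZ lies directly against the striatum.

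With edgeR over the 15 saline libraries no single OCR separated SVZ from NAc at an FDR (false discovery rate) under 0.05, though DESeq2 and some of the fits without SVZ replicate 3 gave such OCRs, and a set of OCRs that leaned towards SVZ did so again in other animals. Of the 2354 OCRs higher in SVZ at an unadjusted p under 0.05, 91.7% were also higher in SVZ than in NAc after METH, against 53.4% of all OCRs. A part of these OCRs lay close together on the chromosomes. Just 39 windows of 1 Mb, holding 1.66% of all OCRs, contained 503 of the 2354, or 21.4%. In these windows neighbouring OCRs were higher in SVZ as a group, and 65.9% of them passed the same threshold in the METH libraries.

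The SVZ libraries held 9.68, 11.4 and 7.55 M counts in OCRs and the NAc libraries 10.7, 10.97, 13.8 and 12.1 M. The mean was 9.54 ± 1.93 M (SD, n = 3) in SVZ and 11.9 ± 1.42 M (SD, n = 4) in NAc, a difference within the spread of the libraries (two-sided exact permutation test, p = 0.143, 0.238 after Benjamini-Hochberg adjustment over 5 measures). The smallest p that 3 against 4 libraries allow is 0.0286. At these depths the standard error of the log2 fold change had a median of 0.42 per OCR, from 0.61 in the fifth of OCRs with the lowest levels to 0.26 in the fifth with the highest. Counts are not independent molecules, so this precision covers the spread between these libraries. A number in the peak names of the deposited lists, read as the animal, tied SVZ replicates 1, 2 and 3 to NAc replicates 1, 3 and 4. A tag in these names had 2 spellings, read here as batch 1 and batch 2, though no label calls them batches. By that reading SVZ replicate 1 and NAc replicates 1 and 2 were in batch 1 and the other libraries in batch 2. After METH both SVZ libraries were in batch 2, and SVZ METH replicates 1 and 2 came from the animals of NAc METH replicates 3 and 4, while NAc METH replicates 1 and 2 were in batch 1.

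SVZ replicate 3 stood nearer to NAc than to the other SVZ libraries. Its log2 CPM (counts scaled to the library total) correlated with the 4 NAc libraries at a Pearson r of 0.874 to 0.923 over OCRs, with SVZ replicate 2 at 0.874 and with SVZ replicate 1 at 0.823. The other SVZ libraries also resembled NAc. SVZ replicates 1 and 2 correlated with each other at 0.896, but replicate 2 reached 0.897 and 0.901 with NAc replicates 1 and 2, and replicate 1 had a mean of 0.860 with the other SVZ and 0.861 with the NAc libraries. For replicate 3 these means were 0.849 and 0.901. The highest value of replicate 3 was with NAc replicate 4, which came from the same animal. These correlations are across OCRs, which are not independent, and describe likeness only.

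The libraries did not form 2 groups on the first principal component of the 7 libraries, which held 33.4% of the variance. SVZ replicates 1 and 2 lay at 151 and 88.6, NAc replicates at -18.4, 24.0, -66.2 and -88.4, and SVZ replicate 3 at -90.6, beyond the lowest NAc library. The difference between the regions accounted for 20.6% of the variance of log2 CPM over all OCRs, with p = 0.171 in an exact permutation test over the 7 libraries. Without SVZ replicate 3 the share was 32.9%, and the exact permutation p of 0.0667 was the smallest that 2 against 4 libraries allow. Each of the other 6 libraries, left out in turn, gave a share between 20.1% and 26.2%.

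Each library was also placed on a line on which 0 was the mean of the NAc saline libraries and 1 the mean of the SVZ saline libraries, each library being left out of its own mean. SVZ replicates 1, 2 and 3 lay at 0.49, 0.67 and 0.09, and NAc replicates 1 to 4 at 0.56, 0.38, 0.18 and 0.19. The groups thus overlapped. The METH libraries of SVZ lay at 1.14 and 0.86, on the side of their own region, and NAc METH replicates 1, 2 and 4 at 0.32, 0.29 and 0.10. NAc METH replicate 3, from the animal of SVZ METH replicate 1, lay at 1.26, beyond the SVZ mean, and went against its label on this line. The saline libraries of the hippocampus, labelled DG for dentate gyrus and CA for the CA fields, lay between 0.63 and 1.18, so the line does not measure likeness to SVZ alone.

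**Figure D1:**
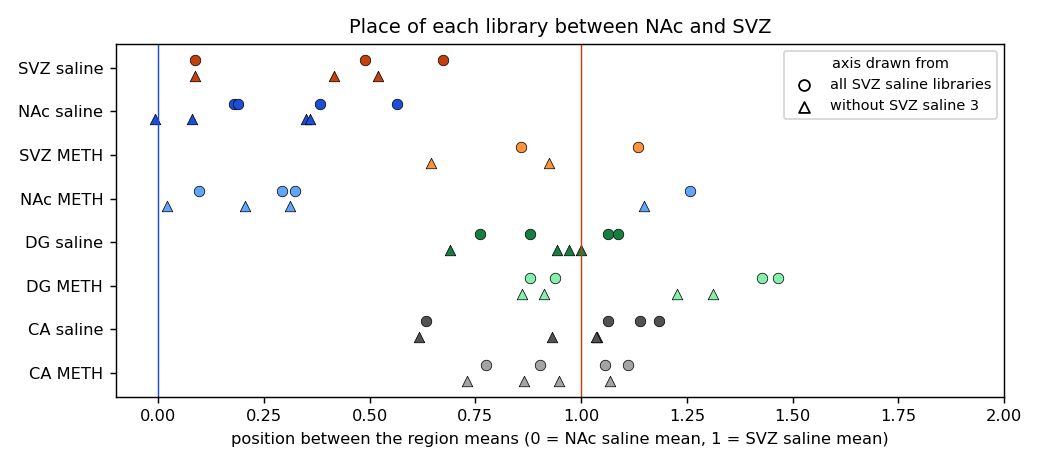
Position of the 29 libraries (points, by region and treatment) between the mean of the NAc saline libraries at 0 and the mean of the SVZ saline libraries at 1, in log2 CPM over all OCRs; circles use all SVZ saline libraries and triangles leave out replicate 3, and a library never enters its own mean. SVZ saline replicate 3 sits at 0.09 near the NAc mean, and 1 NAc METH library sits at 1.26 among the SVZ and hippocampal libraries.

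The 0 OCRs called between SVZ and NAc in saline, at a log2 fold change above 1 and an FDR under 0.01, came from edgeR's quasi-likelihood test over 98237 OCRs, so the background was 0% in each direction. At FDR under 0.05 without a fold threshold the count was also 0, and the lowest FDR was 0.997. At an unadjusted p under 0.05 there were 2354 OCRs higher in SVZ (2.4% of those tested) and 1385 higher in NAc (1.41%), or 3739 in all (3.81%). With no difference at any OCR this threshold would still mark a share of 0.05, so the total was not above that level. The SVZ-higher and NAc-higher OCRs are thus sets by rank of p, not OCRs shown to differ. DESeq2 called 0 OCRs by the first rule and 2 at FDR under 0.05, both higher in SVZ. The values of the 3 SVZ libraries lay entirely above those of the 4 NAc libraries at 4017 OCRs (4.09%) and entirely below them at 2686 (2.73%). After METH the same held at 15% and 8.96% of OCRs, and in both treatments at 1576 (1.6%) and 439 (0.447%). With no difference, 3 against 4 libraries would separate in a given direction at a share of 0.0286 of OCRs. For the 2 against 4 METH libraries that share is 0.0667, so the saline and METH shares are not comparable.

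Without SVZ replicate 3 edgeR again called 0 OCRs, with a lowest FDR of 0.629, and the counts at an unadjusted p under 0.05 rose to 3941 higher in SVZ (4.01%) and 3421 higher in NAc (3.48%), or 7.49% in all. In SVZ the larger set held 87.6% of the first 2354 OCRs, which made up 52.3% of it, but in NAc it held 54.2% of the first 1385, which made up 21.9% of it. DESeq2 without that library called 6 OCRs higher in SVZ and 3 higher in NAc. When the fit held only the 6 remaining libraries of the 2 regions, 1 OCR passed the first rule and 482 OCRs higher in SVZ and 735 higher in NAc reached an FDR under 0.05, where 96905 OCRs were tested.

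The other libraries moved the counts as well. Without SVZ replicate 1 there were 915 OCRs higher in SVZ and 1650 higher in NAc, which turned the balance of the directions. Without SVZ replicate 2 there were 1771 and 657. With the animal as a block the counts were 2875 higher in SVZ and 4732 higher in NAc, again with 0 called, so NAc-higher OCRs were then the more numerous. Within batch 1 alone there were 3311 and 1643 such OCRs and within batch 2 alone 5154 and 3301.

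**Figure D2:**
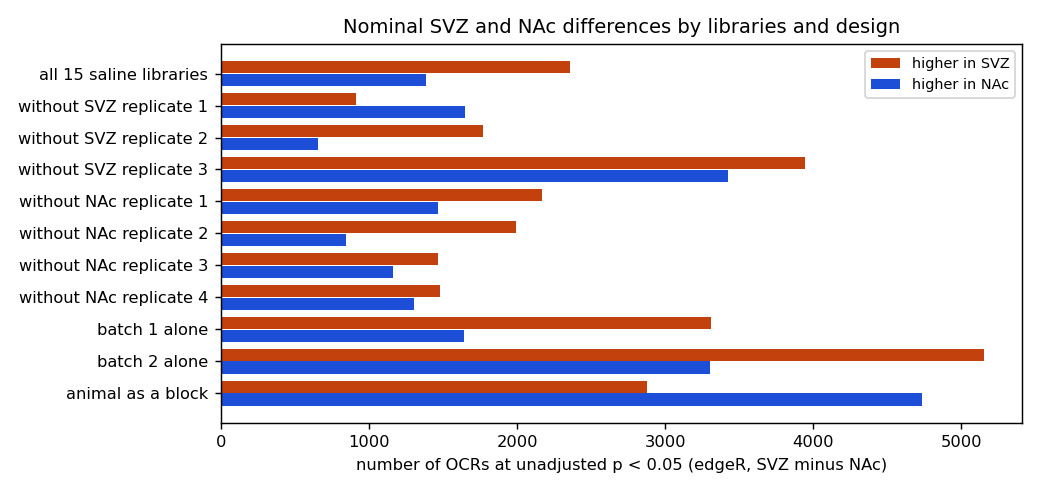
Number of OCRs at an unadjusted p under 0.05 (bars; edgeR, SVZ minus NAc, saline) in each direction, with all libraries, with each library left out, within each batch, and with the animal as a block. Leaving out SVZ replicate 3 gave 3941 and 3421 OCRs against 2354 and 1385 with all libraries, and the direction with more OCRs changed without SVZ replicate 1 and under the animal block.

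The METH libraries gave the same contrast in animals that the saline comparison had not used, and 9.62% of all OCRs had an unadjusted p under 0.05 there in either direction. The 2354 SVZ-higher OCRs had a median log2 fold change of 1.02 in saline, which chose them, and of 0.92 in METH, where the median over all OCRs was 0.05. Of these OCRs, 1127 (47.9%) were higher in SVZ at an unadjusted p under 0.05 in the METH fit, against 5.07% of all OCRs, and 3 were higher in NAc. The 1385 NAc-higher OCRs had a median of -1.01 in saline and -0.28 in METH. Among them 75.2% were higher in NAc after METH, against 46.6% of all OCRs, and 61 (4.4%) were higher in NAc at an unadjusted p under 0.05, against 4.55% of all OCRs. The SVZ-higher OCRs thus showed a difference of nearly the same median in the second group of animals, and the NAc-higher OCRs had the same sign more often than all OCRs did, but with a smaller median.

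These shares were higher without NAc METH replicate 3, which lay near SVZ. Leaving out the NAc library most like SVZ favours higher shares by itself, so the rise is no added support. Without NAc METH replicate 3, 96.1% of the SVZ-higher OCRs were higher in SVZ after METH, against 54.4% of all OCRs. Their median log2 fold change was 1.10. Of them 1382 (58.7%) were higher in SVZ at an unadjusted p under 0.05, against 6.61% of all OCRs. For the NAc-higher OCRs the share was 80.2%, against 45.6% of all OCRs, with a median of -0.39. Of them 117 (8.45%) were higher in NAc at an unadjusted p under 0.05, against 4.82% of all OCRs. Without SVZ METH replicate 1 there were 730 such SVZ-higher OCRs (31.0%, against 2.52% of all OCRs). The number of NAc-higher ones was 38 (2.74%, against 1.30% of all OCRs) without SVZ METH replicate 1. It was 29 (2.09%, against 3.71%) without SVZ METH replicate 2 and 26 (1.88%, against 2.61%) without NAc METH replicate 1. With the OCRs taken from the saline fit without SVZ replicate 3, and without NAc METH replicate 3, 94.3% of 3941 and 88.0% of 3421 OCRs had the same direction. The latter share was 55.2% without SVZ METH replicate 1, against 48.3% of all OCRs. Batch and animal were checked in the METH fit after seeing the data. Within batch 2 alone, with NAc METH replicates 3 and 4, 87.1% of the SVZ-higher OCRs were higher in SVZ and 774 (32.9%) had an unadjusted p under 0.05, against 53.9% and 3.01% of all OCRs. With the animal as a block the shares were 89.8% and 43.8%, against 52.8% and 4.39% of all OCRs. Among the NAc-higher OCRs 63.3% were higher in NAc within batch 2 and 67.9% with the animal as a block, against 46.1% and 47.2% of all OCRs. At an unadjusted p under 0.05 there were 16 (1.16%) and 35 (2.53%), below the 1.32% and 3.09% of all OCRs.

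At FDR under 0.05 the METH fit itself found 105 OCRs higher in SVZ (0.107%) and 1 higher in NAc (0.00102%), with 0 OCRs called by the first rule. This number depended on single libraries: without SVZ METH replicate 1, NAc METH replicate 1 or NAc METH replicate 4 the number was 0, and without SVZ METH replicate 2, NAc METH replicate 2 and NAc METH replicate 3 it was 5, 25 and 17. It was also 0 within batch 2 and with the animal as a block. All 106 had the same sign in saline, with a median log2 fold change of 0.87 there. Of all OCRs, 50.04% were higher in SVZ in saline. At 17 of the 106 the 3 SVZ saline libraries lay above all 4 NAc saline libraries, as they did at 4.09% of all OCRs.

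The size of the SVZ and NAc difference was also compared between the treatments. The interaction, tested by edgeR's quasi-likelihood test over all 29 libraries, called 0 OCRs at FDR under 0.05, and 2433 OCRs (2.48%) had an unadjusted p under 0.05. Among these were 71 of the 2354 SVZ-higher and 177 of the 1385 NAc-higher OCRs, counts that the choice of these OCRs on the saline difference itself affects. Missing the threshold does not show that the difference was equal in both treatments.

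The level of the SVZ-higher OCRs in the hippocampus, which the contrast did not use, lay between those of SVZ and NAc. Choosing OCRs by their SVZ and NAc values sets these regions apart, so an unused region tends to fall between them. Their median log2 CPM was 2.37 in SVZ, 1.44 in NAc, 1.91 in DG and 1.76 in CA, where all OCRs had medians of 2.13, 2.16, 2.13 and 2.03.  By library the median was 2.85, 2.43 and 2.02 in SVZ replicates 1, 2 and 3, and 1.35 to 1.58 in the NAc libraries. SVZ replicate 3 fell within the range of the DG saline libraries, 1.75 to 2.29. In the METH libraries it was 2.87 and 2.69 in SVZ and 1.71, 1.91, 2.39 and 1.64 in NAc. The NAc-higher OCRs had medians of 1.496 in SVZ, 2.48 in NAc, 1.99 in DG and 1.88 in CA, an order of SVZ and NAc that their choice fixed. In the METH libraries, which did not choose them, SVZ had 1.86 and 1.99 and DG 1.45 to 2.27.

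The median width was 685 bp for SVZ-higher, 607 bp for NAc-higher and 662 bp for all OCRs. Of the 424 OCRs of 2000 bp or more, 23 (5.42%) were SVZ-higher and 1 (0.236%) was NAc-higher. Over all OCRs these shares were 2.4% and 1.41%. The SVZ-higher share did not rise steadily with width. In the narrower width classes, in rising order, it was 1.90%, 2.43%, 2.52% and 2.27%. The NAc-higher share there was 1.47%, 1.72%, 0.994% and 0.472%, so it was lower in the wider classes. The median distance to the next OCR was 3.895 kb for SVZ-higher, 5.35 kb for NAc-higher and 4.78 kb for all OCRs. By chromosome the share of OCRs that were SVZ-higher was 4.76% on chromosome 19, 3.46% on chromosome 1 and 3.15% on chromosome 9, and between 1.68% and 2.80% on the other autosomes. The NAc-higher share lay between 0.772% and 1.85% on every autosome.

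This uneven spread was followed in windows of 1 Mb with at least 10 OCRs, of which there were 2208. In 39 windows more than 20% of the OCRs were SVZ-higher, and in 0 windows did NAc-higher OCRs reach that share, the highest being 18.2%. The windows lay on 15 chromosomes, with 8 on chromosome 1, 6 on chromosome 19 and 5 on chromosome 9, and 14 of them touched another such window. Of the 39 windows, 6 (15.4%) lay in the first 2 Mb of a chromosome, against 32 of all 2208 (1.45%). Their 1629 OCRs were packed more closely, with a median distance of 1.68 kb to the next OCR against 4.82 kb elsewhere. They were of the usual width, at 661 bp against 662 bp, and had a peak in a median of 19 of 29 libraries against 17.

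The windows were chosen by their saline values, so these are given as a description. Their OCRs had a median log2 fold change of 0.69 in saline, with quartiles of 0.37 and 0.88, and 86.8% were higher in SVZ, against 49.4% elsewhere. Only 4 of them were NAc-higher. The median was 0.84 within batch 1, 0.66 within batch 2, 0.65 with the animal as a block and 0.86 without SVZ replicate 3. Elsewhere it was -0.09 within batch 1 and 0.00 within batch 2.

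The METH libraries, which had no part in the choice, showed a difference in the same places. There the OCRs of the windows had a median log2 fold change of 1.09, against 0.04 elsewhere, and 1074 of 1629 (65.9%) were higher in SVZ at an unadjusted p under 0.05, against 4.05% of the OCRs outside the windows. Of the 105 OCRs at FDR under 0.05, 74 lay in the windows. With each METH library left out in turn, between 50.6% and 67.5% of the window OCRs passed that threshold, and 1.71% to 5.58% of the OCRs outside, and 87.2% to 88.8% of the window OCRs were higher in SVZ. Within METH batch 2 alone the threshold was passed by 48.3% of the window OCRs and 2.25% of the others, with a window median of 1.04, and with the animal as a block by 63.4% and 3.39%. Whether the saline and METH medians of the windows differed was not tested. In edgeR's interaction test 30 of the 1629 OCRs had an unadjusted p under 0.05, against 2433 (2.48%) of all OCRs. That count is of single OCRs and does not compare the medians. Outside the windows, 89.6% of the remaining 1851 SVZ-higher OCRs were still higher in SVZ after METH, with a median of 0.77, so the pattern was also present outside the windows.

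The level of the window OCRs, taken as their median log2 CPM minus that of all other OCRs, was 0.96, 0.60 and 0.20 in SVZ saline replicates 1, 2 and 3. It was 0.15, 0.18, -0.20 and -0.13 in NAc saline replicates 1 to 4. All 3 SVZ libraries lay above all 4 NAc libraries, but replicate 3 by only a little. In the METH libraries it was 1.11 and 1.08 in SVZ and -0.03, 0.24, 0.35 and 0.05 in NAc, and the groups did not overlap. NAc METH replicate 3, which lay beyond the SVZ mean over all OCRs, was at 0.35 here and below both SVZ METH libraries. The DG libraries ranged from -0.27 to 0.60 and the CA libraries from -0.35 to 0.17. The windows took 2.00% to 2.70% of a library's counts in SVZ saline, 3.35% and 3.39% in SVZ METH, and 1.28% to 2.60% in the 24 libraries of the other regions.

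**Figure D3:**
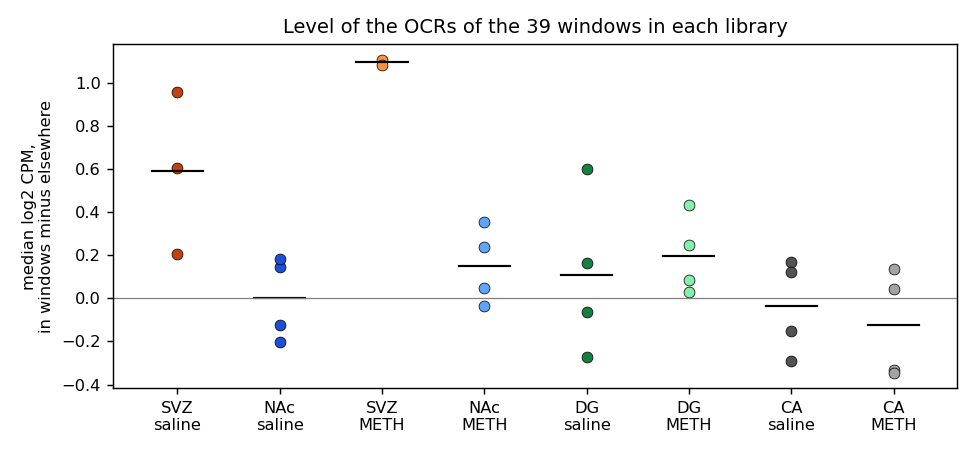
Median log2 CPM of the 1629 OCRs in the 39 windows minus that of all other OCRs, in each of the 29 libraries (points) with the mean of each group (bars). The SVZ METH libraries, which did not enter the choice of the windows, sit at 1.11 and 1.08, above the NAc METH libraries at -0.03 to 0.35.

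In single windows every OCR could move together. At chr1:55000001-56000000 (rn6) 33 of 70 OCRs were SVZ-higher, and all 70 lay higher in SVZ than in NAc in saline. Their median level was 14.4, 9.34 and 6.09 CPM in the SVZ saline libraries and 7.06, 6.67, 3.41 and 4.28 CPM in the NAc saline libraries. SVZ replicate 3 fell within the NAc range, and the other SVZ libraries lay above it. After METH it was 18.7 and 17.1 CPM in SVZ and 4.88, 6.97, 6.05 and 4.82 CPM in NAc. All 70 OCRs had an unadjusted p under 0.05 in METH and 27 of them an FDR under 0.05.

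At chr13:33000001-34000000 22 of 44 OCRs were SVZ-higher and all 44 lay higher in SVZ. Their median level was 16.0, 9.64 and 8.86 CPM in SVZ and 9.01, 7.18, 5.04 and 6.47 CPM in NAc. After METH it was 19.8 and 18.03 CPM in SVZ and 5.44 to 9.19 CPM in NAc, and all 44 passed an unadjusted p under 0.05. At chr1:180000001-181000000 26 of 64 OCRs were SVZ-higher, and all 64 passed that threshold in METH, with levels of 31.1 and 30.1 CPM in SVZ and 8.86 to 14.5 CPM in NAc. At the other end, at chr9:40000001-41000000, 4 of 18 OCRs were SVZ-higher but the median log2 fold change of the window was -0.06, the only negative one of the 39. Over the 39 windows the median log2 fold change in METH ranged from 0.32 to 1.63.

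**Figure D4:**
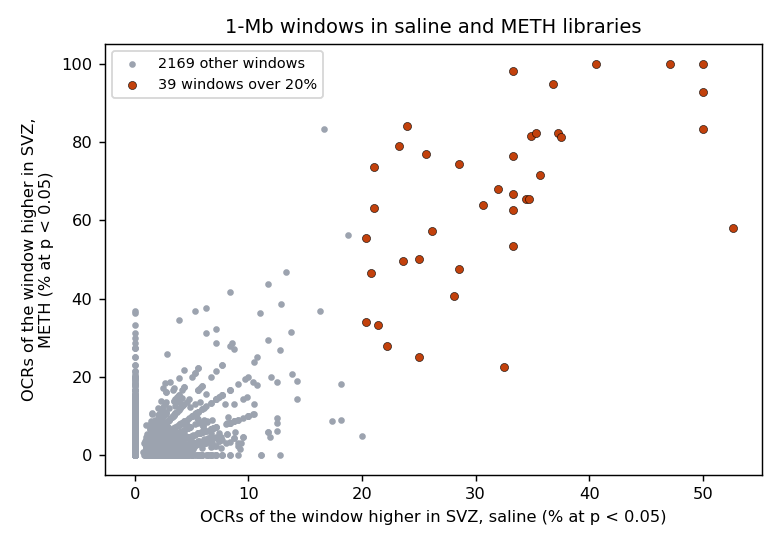
Share of the OCRs of each 1-Mb window (points; 2208 windows with at least 10 OCRs) that were higher in SVZ at an unadjusted p under 0.05 in saline (x axis, percent) and in METH (y axis, percent). The 39 windows over 20% in saline, which were chosen on the x axis, hold between 22.5% and 100% such OCRs in METH.

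The OCRs named singly were the 12 in each direction with the lowest p whose groups did not overlap and whose mean was at least 2 CPM in the higher region, since 0 were called. They are numbered by rank, carry no gene name here, and describe the lowest p-values without a test, because the values chose them. All 24 had an FDR of 0.997.

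The 12 OCRs higher in SVZ had log2 fold changes from 1.38 to 3.30. SVZ-1 (chr3:34303067-34303929) had 7.81, 3.48 and 4.96 CPM in SVZ and 1.07, 1.53, 1.02 and 1.62 CPM in NAc. Its log2 fold change was 2.04 ± 0.41 (SE) in saline and 1.90 ± 0.87 in METH. SVZ-2 (chr6:113566181-113567004) had the largest difference, with 5.06, 7.56 and 1.89 CPM in SVZ and 0.31 to 0.68 CPM in NAc. After METH it had 9.83 and 7.63 CPM in SVZ and 0.92 to 3.97 CPM in NAc, a log2 fold change of 2.26 ± 0.68. It was also low in the hippocampus, at 0.91 ± 0.62 CPM (SD, n = 4) in DG and 0.77 ± 0.30 CPM (SD, n = 4) in CA, and each SVZ saline library lay above every other saline library. A peak was called there in 3 of the 29 libraries.

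SVZ-3 (chr1:39047415-39048423), in one of the windows, had 16.8, 12.3 and 7.44 CPM in SVZ and 3.07 to 5.26 CPM in NAc. SVZ-5 (chr14:92679589-92680490) had 28.2 CPM in SVZ replicate 1 but 5.21 and 6.62 CPM in replicates 2 and 3, against 1.70 to 3.603 CPM in NAc. After METH it reached 64.9 and 29.3 CPM in SVZ and 1.75 to 16.2 CPM in NAc. SVZ-7 (chr19:239868-240668), also in a window, had 30.1, 14.2 and 14.6 CPM in SVZ and 7.02 to 8.47 CPM in NAc. In METH its log2 fold change was 1.87 ± 0.31, with an FDR of 0.0382 by edgeR's quasi-likelihood test, the only named OCR under 0.05 there. DESeq2 put SVZ-2 and SVZ-3 at an FDR of 0.0126 each in saline, and these were its 2 OCRs under 0.05.

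Of the 12, 11 were higher in SVZ after METH and 6 had an unadjusted p under 0.05 in that direction, against 53.4% and 5.07% of all OCRs. Their median log2 fold change was 1.05. The exception was SVZ-8 (chr4:67783256-67783980), with 2.74, 7.30 and 4.73 CPM in SVZ saline and 1.43 to 1.77 CPM in NAc saline but a METH log2 fold change of -0.07 ± 0.57. NAc METH replicate 3 had 7.20 CPM there, where the other NAc METH libraries had 1.79 to 2.03 CPM.

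**Figure D5:**
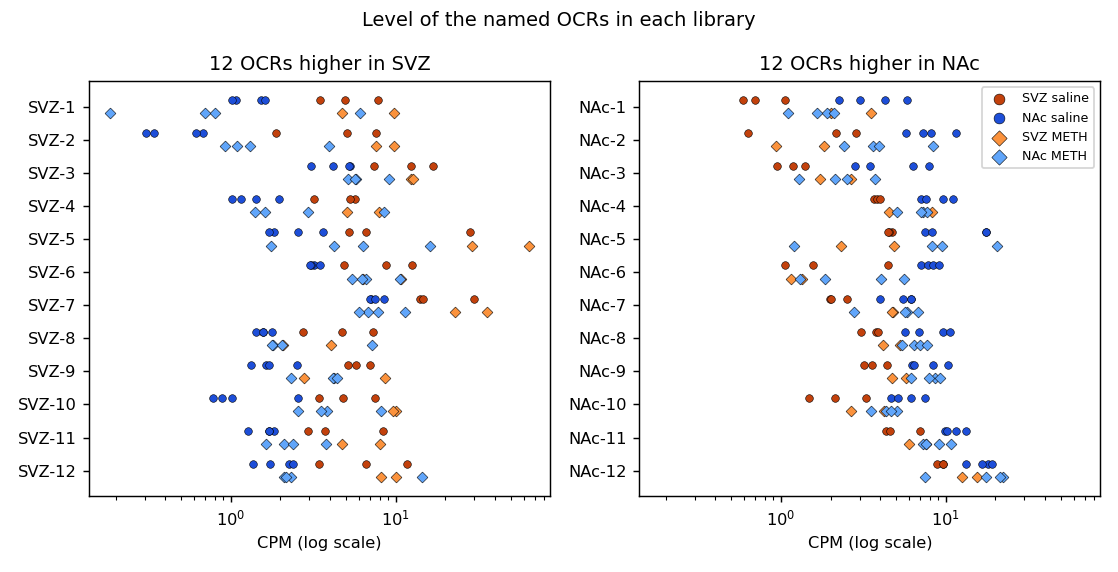
Level in CPM (log axis) of the 12 named OCRs in each direction, with 1 point per library of SVZ and NAc, circles for saline and diamonds for METH. The saline groups do not overlap because the OCRs were chosen so. After METH 6 of the 12 SVZ-higher and 3 of the 12 NAc-higher OCRs did not overlap between the regions. Over all OCRs the METH groups did not overlap at 15%, higher in SVZ, and at 8.96%, higher in NAc.

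The 12 OCRs higher in NAc had log2 fold changes from -2.28 to -0.84. NAc-1 (chr9:62689371-62690172) had 1.06, 0.70 and 0.59 CPM in SVZ and 2.24, 4.28, 5.79 and 3.01 CPM in NAc. After METH it had 2.02 and 3.504 CPM in SVZ and 1.11 to 2.10 CPM in NAc, and its log2 fold change of 0.70 ± 0.66 had the other sign. The interaction had an unadjusted p of 0.00149 at this OCR and an FDR of 1.0 by edgeR's quasi-likelihood test. NAc-2 (chr14:33094762-33095287) had 0.63, 2.17 and 2.84 CPM in SVZ and 5.70 to 11.6 CPM in NAc, and it was nearly closed in the hippocampus, at 0.44 ± 0.31 CPM (SD, n = 4) in DG and 0.36 ± 0.07 CPM (SD, n = 4) in CA. Its METH log2 fold change was -1.73 ± 0.69, with 1.83 and 0.93 CPM in SVZ and 2.40 to 8.40 CPM in NAc, the only one of the 12 with an unadjusted p under 0.05 there.

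NAc-6 (chr2:104383369-104384115) showed how SVZ replicate 3 bore on single OCRs. It had 1.06 and 1.56 CPM in SVZ replicates 1 and 2 but 4.49 CPM in replicate 3, against 7.11 to 9.09 CPM in NAc, and 0.69 ± 0.31 CPM (SD, n = 4) in DG. Its log2 fold change was -1.79 ± 0.46 with all libraries and -2.61 without replicate 3. NAc-5 (chr4:120656451-120657240) had 4.75, 4.52 and 4.49 CPM in SVZ and 7.499, 8.25, 17.5 and 17.5 CPM in NAc, where the 2 higher values were the batch 2 libraries. Of the 12, 11 were higher in NAc after METH, against 46.6% of all OCRs, with a median log2 fold change of -0.35.

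Genes could be named only through the orthology table of the study, which ties 814 of the OCRs to human positions. For 521 of these the human sequence lay in 1 gene, over 461 genes, and none of these OCRs reached an FDR under 0.05. At an unadjusted p under 0.05 there were 8 higher in SVZ (1.54%) and 4 higher in NAc (0.768%), below the shares over all OCRs. The genes below are the 6 with the lowest p in each direction.

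Higher in SVZ were OCRs at SESTD1, at CTNNA2, which encodes a neuronal alpha-catenin of cell adhesion, at AKR7A3, an aldo-keto reductase, at CACNA1C, the pore subunit of an L-type calcium channel, at CDK2AP1 and at CSMD1. The CTNNA2 OCR (chr4:108517696-108518550) had 9.81, 5.65 and 5.67 CPM in SVZ and 2.32 to 4.62 CPM in NAc. Its log2 fold change was 0.95 ± 0.37 in saline and 1.60 ± 0.36 in METH, where SVZ had 14.6 and 9.79 CPM. The CACNA1C OCR (chr4:150643830-150644892) had 15.2, 8.78 and 7.68 CPM in SVZ and 5.45 to 6.43 CPM in NAc, a log2 fold change of 0.81 ± 0.34, but 0.28 ± 0.29 in METH. The CDK2AP1 OCR (chr20:4646848-4648830) had a log2 fold change of 0.76 ± 0.33 in saline and 1.00 ± 0.31 in METH. All 8 OCRs higher in SVZ in saline were also higher in METH, as were 53.4% of all OCRs. One of the other two among the 8, chosen here after its values were seen, lay at VCAN, which encodes the matrix proteoglycan versican. It had 5.70, 7.99 and 8.27 CPM in SVZ and 3.47 to 5.20 CPM in NAc, and its log2 fold change was 0.71 ± 0.33 in saline and 1.52 ± 0.34 in METH.

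Higher in NAc at an unadjusted p under 0.05 were OCRs at RGL1, an exchange factor for Ral GTPases, at ZDHHC6, a palmitoyltransferase, and at SDCCAG8 and ENOX1. The next were at RUNX1, with a log2 fold change of -0.82 ± 0.40, and INPP5D, with -0.65 ± 0.32, which missed that threshold. The RGL1 OCR (chr13:69945744-69946053) had 2.32, 1.22 and 1.30 CPM in SVZ and 4.29, 5.30, 3.20 and 3.54 CPM in NAc. Its log2 fold change was -1.33 ± 0.40 in saline and -0.05 ± 0.43 in METH, so the difference was not seen in the second group of animals. The METH values of the 4 with an unadjusted p under 0.05 in saline were all below 0, as were those of 46.6% of all OCRs. The other 5 had saline log2 fold changes from -1.27 to -0.65.

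Of 125 marker and pathway genes listed for these tissues, 7 had an OCR in that table, with 11 OCRs in all, and 0 of the 11 had an unadjusted p under 0.05. Medium spiny neuron genes accounted for 8 of the OCRs, with a median log2 fold change of -0.03. The strongest OCR of FOXP1, a transcription factor of striatal neurons, had 57.9 ± 10.7 CPM (SD, n = 3) in SVZ and 56.7 ± 11.7 CPM (SD, n = 4) in NAc. An OCR of ADCY5, the main adenylyl cyclase of the striatum, had 45.7 ± 20.3 CPM in SVZ and 36.5 ± 5.61 CPM in NAc. At BCL11B, a factor of medium spiny neurons, the values were 3.11 ± 1.46 and 3.58 ± 0.82 CPM. The other OCRs of the list differed in direction. An OCR at ADCY5 and an OCR at ARPP21 leaned towards NAc. Another FOXP1 OCR leaned towards SVZ, with a log2 fold change of 0.26 to 0.61 with 1 library left out. Another ARPP21 OCR spanned 0, at -0.13 to 0.36. The second ADCY5 OCR had 6.75, 6.17 and 16.3 CPM in SVZ and 7.74 to 15.1 CPM in NAc, with a log2 fold change of -0.31 ± 0.44, and an OCR of ARPP21, a phosphoprotein of striatal neurons, had 1.69, 1.82 and 4.25 CPM in SVZ and 3.51 to 4.48 CPM in NAc, with -0.68 ± 0.48. In both, SVZ replicates 1 and 2 lay below the NAc range. Replicate 3 lay above that range at ADCY5 and within it at ARPP21. The OCR at GAD1, which makes GABA, had 13.4 ± 3.08 and 10.3 ± 0.92 CPM. No OCR of the ependymal, neural stem cell, astrocyte, microglial, endothelial or choroid plexus genes was in the table, so the SVZ label was not checked against its own markers here.

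The peaks called in each library gave a readout outside the count model. There were 51445, 63592 and 50732 peaks in SVZ and 61538, 67430, 99514 and 83006 in NAc, means of 55256 ± 7228 (SD, n = 3) and 77872 ± 17035 (SD, n = 4), with p = 0.143 (two-sided exact permutation test, 0.238 adjusted). The difference was -13039 peaks within batch 1 and -34098 within batch 2. The median fold enrichment of a peak over its surroundings was 5.15, 5.15 and 5.39 in SVZ and 5.51, 5.82, 5.82 and 5.56 in NAc, and the groups did not overlap (two-sided exact permutation test, p = 0.0286, the smallest possible, 0.143 adjusted). The 10% of OCRs with the most counts took 52.4%, 51.1% and 47.3% of the counts in SVZ and 54.4%, 56.1%, 49.0% and 49.4% in NAc (two-sided exact permutation test, p = 0.486). Peak enrichment was thus lower in every SVZ library than in every NAc library, but not past the threshold after adjustment, and its part in the OCR differences was not tested.

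At 40 OCRs (0.0407%) every SVZ saline library had a peak and no NAc saline library did, and at 1346 (1.37%) the reverse held. Without SVZ replicate 3 the counts were 506 and 3813. Of the 40, 35 had a peak in at least 1 SVZ METH library and 27 in both, and 8 lacked one in all 4 NAc METH libraries. Over all 98237 OCRs these numbers were 60302, 40547 and 21517. Counts at the 40 were higher in SVZ after METH at 92.5%, against 53.4% of all OCRs. Of the 1346, 321 had a peak in all 4 NAc METH libraries and 657 in at least 1 SVZ METH library. Over all OCRs these numbers were 37037 and 60302. Counts at the 1346 were higher in SVZ after METH at 36.3%, against the same 53.4% of all OCRs. Neither the 8 nor the 321 was a larger share than over all OCRs. A peak of an SVZ library overlapped a peak of an NAc library in a median of 79.6% of cases and a peak of another SVZ library in 61.0%. In the other direction an NAc peak overlapped an SVZ peak in 58.4% of cases. The NAc lists are mostly longer than the SVZ lists, which raises the overlap with them, so these shares give no order of likeness.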

How the data were processed

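Accessibility was measured by the omni-ATAC protocol on frozen tissue. The authors processed the reads with the AIAP pipeline, called peaks in each library, merged them into OCRs with bedtools and deposited raw counts per OCR on rn6 (which program counted the reads was not stated). Peak lists as deposited give a fold ratio over background and −log10 p- and q-values. Groups came from sample titles. Members and lists were chosen with earlier results of these data known.

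The 15 saline libraries were fitted in 4 region groups with edgeR 4.0.16 (R 4.3.3; filterByExpr, upper-quartile normalization, robust quasi-likelihood F test), with Benjamini-Hochberg FDR, and DESeq2 1.42.0 was an alternative. The 14 METH libraries were fitted likewise, and an interaction over 29. CPM scale counts by library total and normalization factor, and log2 CPM use a prior count of 2. Fits were tested on simulated data. Animal was read from a number in the peak names, and batch was inferred from the spelling of a tag there, which no label calls a batch. Same-animal deviations correlated at -0.05, -0.02 and 0.32. Named OCRs followed the rule given with them: lowest p, no overlap, at least 2 CPM. Windows were chosen after seeing the data. The reference tables are of another build, so no OCR was placed relative to genes and no sequence was read. Alternatives were other normalizations, filters, libraries, blocks and 2 RUVr factors. Replicates of a group are separate animals by the peak names.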

Additional observations from a re-analysis of the deposited data

Results flagged for a closer look

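NAc METH replicate 3 lay far from the other NAc METH libraries in 6 of the 8 results singled out by Dixon's test at its 95% level, out of 61 groups of 4 libraries tested; chance alone marks about 1 group in 20. Its median log2 CPM over the NAc-higher OCRs was 1.60, where the other 3 libraries had 2.23 to 2.34. It had 6.09 CPM at SVZ-1 (others 0.18 to 0.81), 3.97 CPM at SVZ-2 (others 0.92 to 1.31), 9.14 CPM at SVZ-3 (others 5.14 to 5.72), 7.20 CPM at SVZ-8 (others 1.79 to 2.03) and 14.5 CPM at SVZ-12 (others 2.11 to 2.31). In each of these it lay towards SVZ. The other 2 were NAc METH replicate 2 at SVZ-9, with 2.31 CPM against 4.15 to 4.43 in the others, and NAc saline replicate 4 at SVZ-10, with 2.54 CPM against 0.78 to 1.02.

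Some peaks lay outside the count table. They made up 9.43% to 12.1% of the peaks of the SVZ saline libraries and 10.3%, 11.3%, 20.1% and 24.9% of those of the NAc saline libraries, groups that overlapped (two-sided exact permutation test, p = 0.286, 0.357 adjusted over 5 measures). The difference was -0.47 percentage points within batch 1 and -11.7 within batch 2. Merged over the 7 libraries they formed 46450 places, of which 63.6% came from 1 library. At 331 of these places all 4 NAc libraries had a peak and no SVZ library did, and at 7 the reverse held. The mostly longer NAc peak lists favour the first of these counts. No counts for these places were analysed here.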

How the results depend on the processing

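The number of OCRs called stayed at 0 under TMM, DESeq2, both filters, the 7 libraries alone, the replicate block, the animal block, batch, 2 RUVr factors and each library left out; it was 1 with the 7 libraries without SVZ replicate 3 and 9 with DESeq2 without it. At FDR under 0.05 the counts were 1217 and 39 in these 2 fits and 2 with DESeq2. The 3739 OCRs at an unadjusted p under 0.05 became 7363 with the 7 libraries alone, 7639 with the replicate block (31.4% of them higher in SVZ, against 63.0%), 7607 with the animal block, 6700 with batch, 13206 with 2 RUVr factors, 8455 within batch 2, 8608 with the animal block without SVZ replicate 3, 15826 with the 7 libraries without it and 9656 with DESeq2 without it. Leaving out 1 library gave 2428 (without SVZ replicate 2) to 7362 (without SVZ replicate 3). Replicate numbers mark the same animal only for replicate 1, so the replicate block is no pairing. The cause of these shifts was not tested.

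The 24 named OCRs kept their direction in all 504 repeats, and 5 of these repeats passed the call rule, all without SVZ replicate 3. SVZ-2 passed with the 7 libraries and with DESeq2, and SVZ-3, SVZ-6 and NAc-6 passed with DESeq2. The repeats reuse libraries whose separation chose these OCRs, so the kept direction is no independent support. The share of SVZ-higher OCRs with the same sign in METH was 88.4% and 84.9% for OCRs chosen without SVZ replicate 3 or by no overlap, 87.1% and 89.8% within METH batch 2 and with the animal as a block in METH, and 86.7% to 96.1% with 1 METH library left out; for NAc-higher OCRs it was 70.0% by no overlap, 63.3% and 67.9% in those METH fits and 67.9% to 80.2% with 1 library left out. Median peak enrichment differed by -0.53 to -0.40 with 1 library left out, where the exact test cannot go under 0.05. OCRs with a peak in all SVZ and no NAc libraries numbered 24 at −log10 q above 5 and 506 without SVZ replicate 3; the reverse numbered 3813 without it. In place of 39 windows of 1 Mb there were 19 of 2 Mb, 56 of 0.5 Mb and 55 from the fit without SVZ replicate 3. No value could be given for called OCRs in METH, since 0 were called. With 2 or 3 SVZ libraries, depth and number limit what single OCRs can show. The fits within a batch, the METH fit with the animal as a block, those that combine 2 changes and the windows were chosen after seeing the data.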
